A study of Mus musculus with 4 samples.

Results

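The cells described here are those that the authors labelled OPC, for oligodendrocyte precursor cell, in the cell tables of frontal cortex and midbrain. There were 244 of them among 21644 cells. They were divided by 6 genes: a cell with at least 1 UMI (a counted mRNA molecule) of Dcn, Lum or Col1a1 and none of Gpr17, Lhfpl3 or Cspg4 is called a fibroblast-gene cell, and a cell with the reverse pattern an OPC-gene cell. Cells with UMIs of both gene trios, or of neither, were kept apart. By this division 179 of the 244 cells were fibroblast-gene cells, 47 were OPC-gene cells, 17 held both and 1 held neither, so the label went against the markers in most of its cells.

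Single-cell RNA sequencing (10x 3' chemistry, version 3) had been run on frontal cortex and midbrain from mice 6 to 9 months old, in a study of astrocytes in synucleinopathy. The transgenic mice carried Huα-Syn(A53T), the A53T mutant of human alpha-synuclein, and the controls were wildtype littermates whose strain is given as C57BL/6. The tissue had been dissociated to recover glial and vascular cells. A library stands for 1 region of 1 genotype. According to the design text a genotype was represented by 3 mice, and the labels take both regions from those same mice, with a mouse number of 3 entered at frontal cortex and of 0 at midbrain. The cell tables name no mouse, and the labels name no promoter for the transgene. With 1 library per group there is no replicate check, no test was run, and every interval covers counting error only. In a comparison of regions, region coincides with the deposited table, since each region was deposited as 1 table.

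Oligodendrocyte precursor cells are the proliferating glia of the adult brain that give rise to myelinating oligodendrocytes. They carry the receptor PDGFRα, the proteoglycan NG2 (encoded by Cspg4) and the transcription factors Olig1, Olig2 and Sox10, and a subset committed to differentiation expresses the receptor gene Gpr17. Brain fibroblasts lie in the meninges and around larger vessels, where they make type I collagen and small leucine-rich proteoglycans such as decorin (Dcn) and lumican (Lum). Many of them also express Pdgfra, so that gene alone does not tell these cell types apart.

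The label took in 79 cells of the wildtype frontal cortex library, 35 of the transgenic frontal cortex library, 93 of the wildtype midbrain library and 37 of the transgenic midbrain library. In wildtype frontal cortex 47 of 79 cells were fibroblast-gene cells (59.5%, exact 95% interval 47.9 to 70.4%) and 28 were OPC-gene cells. In transgenic frontal cortex 15 of 35 were fibroblast-gene cells (42.9%, 26.3 to 60.6%) and 19 were OPC-gene cells. The shares of the frontal cortex libraries overlapped in their counting intervals. In midbrain 82 of 93 wildtype cells (88.2%, 79.8 to 93.9%) and 35 of 37 transgenic cells (94.6%, 81.8 to 99.3%) were fibroblast-gene cells. No OPC-gene cell was found under the label in midbrain, which for 0 of 93 cells puts the upper limit of the exact interval at 3.89%.

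The split followed the authors' own clusters. In frontal cortex every cell with fibroblast genes alone or with both trios lay in cluster 23, which held 66 cells, and all 47 OPC-gene cells lay in cluster 27 together with the 1 cell that held neither trio, which had 1500 UMIs in total. All 130 midbrain cells lay in cluster 25. The OPC-gene cells held between 4 and 76 UMIs of Gpr17, Lhfpl3 and Cspg4 together, and none of Dcn, Lum or Col1a1. The 17 cells with both trios held 10 to 302 UMIs of the fibroblast genes against 1 or 2 UMIs of the OPC genes, so they stood with the fibroblast-gene cells. Near the threshold, 2 wildtype and 1 transgenic midbrain cells qualified as fibroblast-gene cells on 1 UMI. Cell barcodes shared between libraries numbered 3 to 15 per pair of libraries, and 1 cell under the label was among them.

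**Figure D1:**
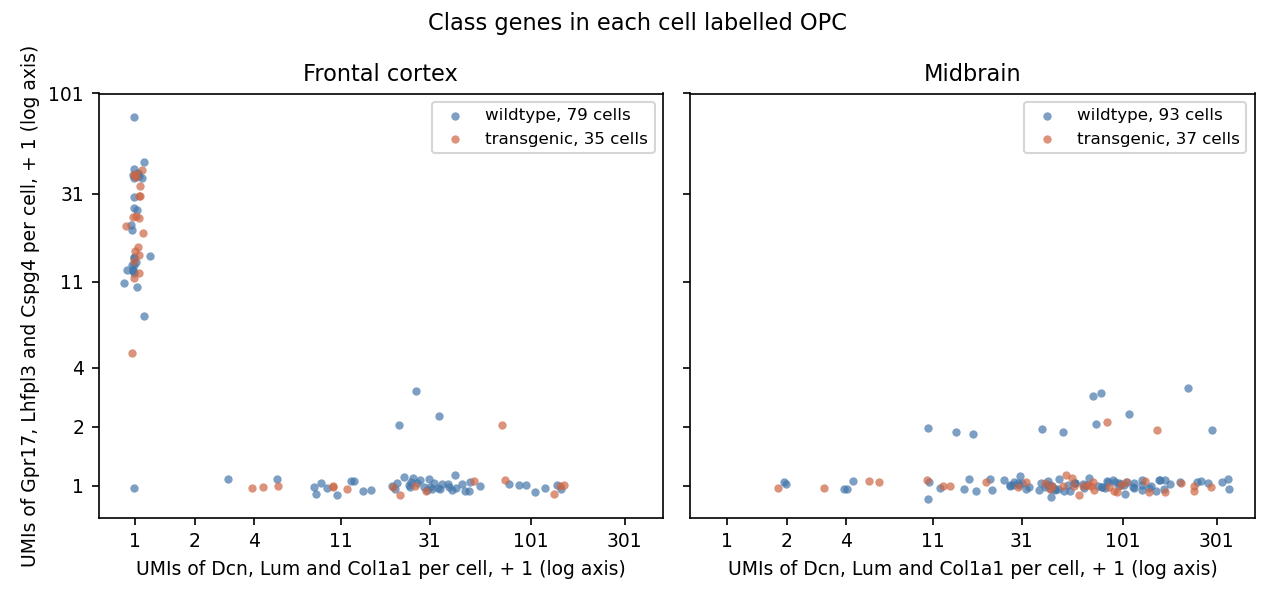
UMIs of Dcn, Lum and Col1a1 (horizontal) against UMIs of Gpr17, Lhfpl3 and Cspg4 (vertical) in each cell labelled OPC, both plus 1 on log axes with slight jitter, for frontal cortex (left) and midbrain (right); points are cells, coloured by genotype. Frontal cortex shows 2 arms along the axes, and midbrain shows the horizontal arm alone, with at most 2 UMIs of the OPC genes in any cell.

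Levels are given as CPM, the UMIs of a gene per 1000000 UMIs of the group. In the GRCm38 annotation Dcn (chromosome 10, 97479609 to 97518143), Lum (chromosome 10, 97565128 to 97572703) and Col1a1 (chromosome 11, 94936224 to 94953042) are protein-coding genes of the plus strand, as are Lhfpl3 (chromosome 5, 22746059 to 23275597) and Cspg4 (chromosome 9, 56865033 to 56899870). Levels are compared between groups of cells and not between genes. Dcn stood at 2708 CPM in the wildtype and 4143 CPM in the transgenic fibroblast-gene cells of frontal cortex, and at 7599.9 and 6781 CPM in those of midbrain. Both midbrain libraries were above both frontal cortex libraries. Lum, at 487, 449, 970 and 773 CPM in the same order, was also highest in midbrain. Col1a1, a chain of type I collagen, was at 699.6, 1310.5, 758 and 872 CPM, highest in the transgenic frontal cortex cells. Gpr17 was at 825 CPM in the wildtype and 549 CPM in the transgenic OPC-gene cells, Lhfpl3 (a membrane protein of the LHFPL family) at 1206 and 1227 CPM, and Cspg4 at 1071 and 907 CPM. Since these 6 genes made the classes, their absence from the opposite class is no finding.

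Genes that the division did not use separated in the same way. Olig1, a transcription factor of the oligodendrocyte lineage, had 496 UMIs in the 28 wildtype and 366 in the 19 transgenic OPC-gene cells, and 2 UMIs in all 179 fibroblast-gene cells. Sox10 had 70 and 65 UMIs in the OPC-gene cells and none in any fibroblast-gene cell. Col1a2, the other chain of type I collagen, had 481, 102, 841 and 308 UMIs in the fibroblast-gene cells and 0 and 1 in the OPC-gene cells. Foxc1, Zic1 and Tbx18, transcription factors of meningeal cells, reached 176 to 663 CPM in every fibroblast-gene group and at most 17.9 CPM in the OPC-gene groups.

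**Figure D2:**
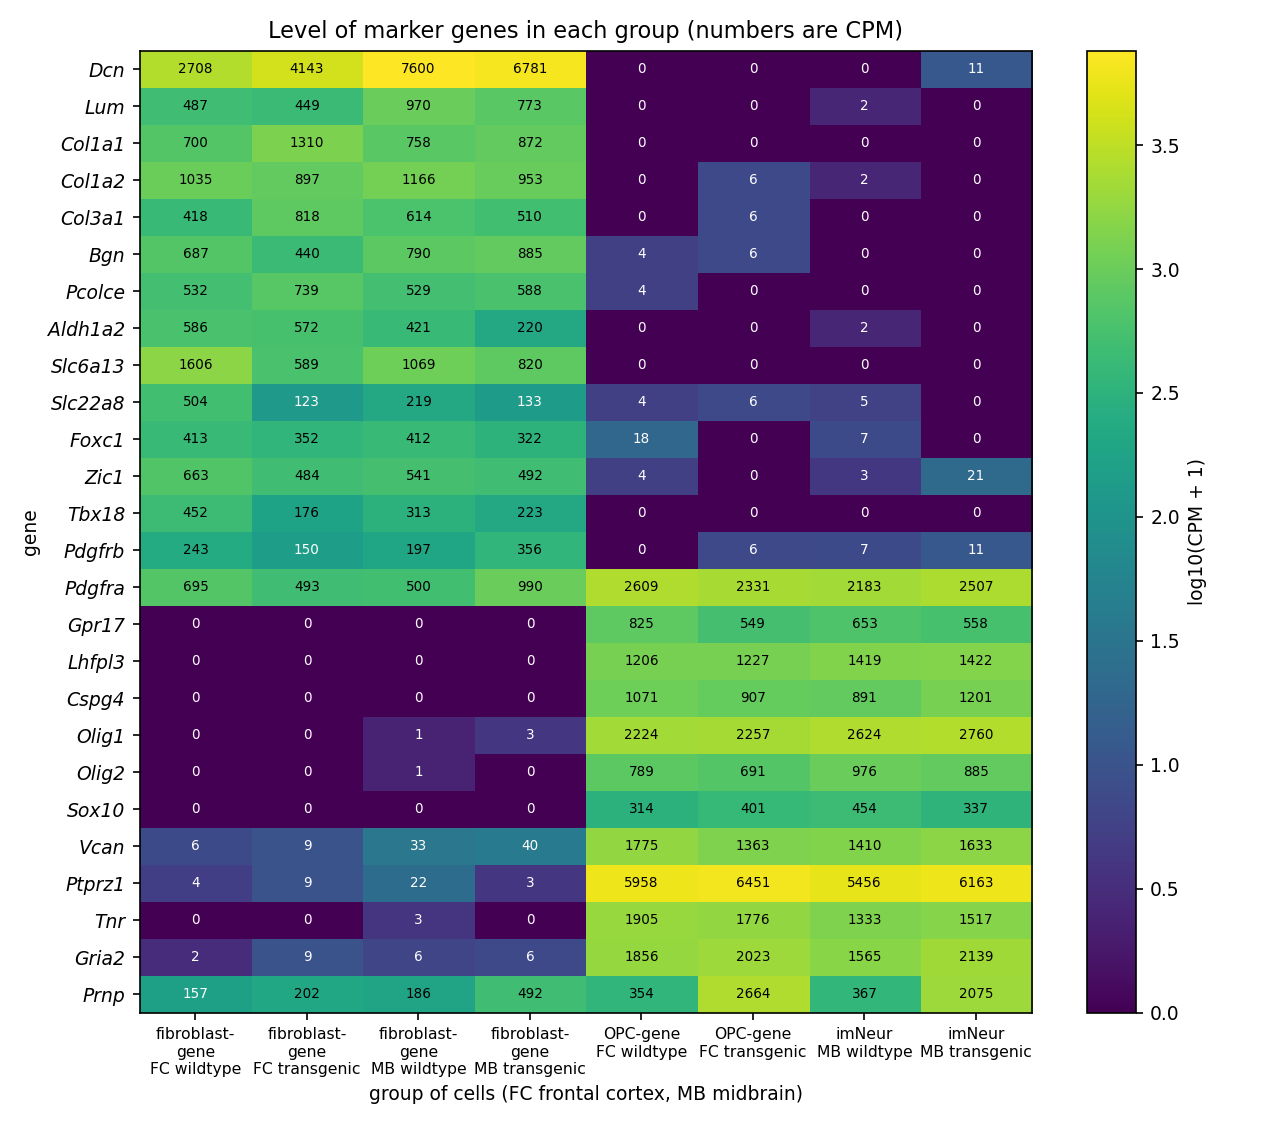
Level of marker genes (rows) in the fibroblast-gene, OPC-gene and midbrain imNeur cells of each library (columns); colour is log10 of CPM plus 1 and the printed numbers are CPM. Pdgfra lies between 493 and 2609 CPM in all columns, while Olig1 and Sox10 are near 0 in the 4 fibroblast-gene columns and Col1a2 is near 0 in the others.

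Pdgfra was the shared marker. It stood at 695 CPM (622 to 775) and 493 CPM (372 to 639.6) in the wildtype and transgenic fibroblast-gene cells of frontal cortex, and at 500.4 CPM (450.1 to 555) and 989.9 CPM (884 to 1104.5) in those of midbrain. The OPC-gene cells held more, 2609 CPM (2401 to 2830.0) in wildtype and 2331 CPM (2102 to 2579) in transgenic. The log2 ratio of fibroblast-gene to OPC-gene cells was -1.91 in wildtype frontal cortex. After every cell was thinned to 2000 UMIs, 66.7% of 45 wildtype frontal cortex fibroblast-gene cells (83% before thinning) and 96.4% of 28 OPC-gene cells kept a Pdgfra UMI, against 0.162% of 1851 microglia, a type that lacks the gene. The thinning left out 2 of the fibroblast-gene cells, none of the OPC-gene cells and 61 microglia, whose median depths were 10189, 6184.5 and 7373 UMIs. Among the RefSeq promoters, 5 of 9 genes looked for were found. Because Pdgfra is the gene both classes share, the 250 bases before its start are shown (RefSeq, GRCm38.p6, chr5:75152001-75152250, plus strand, upstream of the annotated gene at 75152292 to 75198215), with an E-box in capitals.
Pdgfra upstream: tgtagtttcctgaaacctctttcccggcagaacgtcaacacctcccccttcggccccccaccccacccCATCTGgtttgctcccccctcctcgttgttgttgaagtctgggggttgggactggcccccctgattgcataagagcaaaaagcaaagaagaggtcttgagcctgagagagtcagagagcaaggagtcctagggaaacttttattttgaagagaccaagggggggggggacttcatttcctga
Both strands were searched. The window held 1 E-box (CANNTG). It held no GC box, spelled GGGCGG, and no match to the CCAAT box, whose name gives its letters. The TATA box, searched as TATAAA, was not found either, and no motif overlapped another. Over all 32851 windows of this length those shares were 66.2% with an E-box, 32.7% with a GC box, 33.8% with a CCAAT box and 12.4% with a TATA box. The match is a description of letters and not of a bound site.

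The other deposited labels show where the same genes were counted in the rest of each library. The OPC label held 84.1 to 94.9% of all Dcn UMIs and 93.2 to 96.8% of all Lum UMIs in the 4 libraries. It held only 34.2 to 54.7% of Col1a1 UMIs, with astrocytes and cells labelled OLG next. In midbrain, Col1a1 UMIs were kept after thinning by 6.52% of wildtype and 7.86% of transgenic astrocytes, against 0.195% and 0.136% of microglia (18.3% and 23.9% of astrocytes before thinning, at median depths of 6320.0 and 7923.5 UMIs, and 6749 and 8317.5 UMIs for microglia). Dcn was kept by 8.59 to 12.8% of pericytes and by at most 0.544% of microglia. In wildtype and transgenic frontal cortex Dcn stood higher in OLG cells (107 and 142 CPM) than in pericytes (57.5 and 47.0 CPM). In midbrain OLG cells held 59.2 and 51.8 CPM, against 75.5 and 52.1 CPM in pericytes. Cspg4 was mostly outside the label, in pericytes and smooth muscle cells, with 0.0584 to 12% of its UMIs under the label. Of the OLG cells (34 and 27 in the wildtype and transgenic frontal cortex libraries, 54 and 12 in those of midbrain) 13.3 to 40% kept a Col1a1 UMI after thinning, while none kept a Lum UMI.

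The midbrain table holds most Gpr17 UMIs under another label, imNeur. The imNeur label took in 71 wildtype and 13 transgenic cells, and carried 400 of 450 Gpr17 UMIs in the wildtype and 53 of 64 in the transgenic midbrain library. In these cells Lhfpl3 stood at 1419 and 1422 CPM, Cspg4 at 891 and 1201 CPM, Pdgfra at 2183 and 2507 CPM and Olig2 at 976 and 885 CPM, with no UMI of Col1a1. Set against the wildtype OPC-gene cells of frontal cortex, 102 of 3784 genes (2.7%) stood 2 times or more above and 52 (1.37%) 2 times or more below in the wildtype imNeur cells. None of the 14 OPC markers passed 2 times, and their median log2 ratio was -0.01 (0.02 without the 3 genes that chose the OPC-gene cells) beside 0.06 over all genes tested. The genes named by rule on the higher side were Col27a1, a fibrillar collagen chain (2.69), Slc38a1, a glutamine transporter (2.63), Zfp428 (1.80), Gap43, a growth-cone protein (1.74), Tceal8 (1.73) and Ralyl (1.73). In the transgenic libraries Slc38a1 stood at -0.81 (-4.15 to 1.67) and Gap43 at -0.33 (-1.36 to 0.63). On the lower side were Glul, glutamine synthetase (-1.89), Ctsz, a lysosomal protease (-1.87), Ccl4, a chemokine (-1.76), Klf6, an immediate early transcription factor (-1.65), Serinc3 (-1.63) and Akap12, a kinase anchor (-1.50), all 6 with a negative ratio in the transgenic libraries too, where the counting interval left out 0 for Glul alone (-1.81, -3.80 to -0.27). Of the genes called in wildtype with at least 10 UMIs in the transgenic libraries, 57 of 99 higher genes were again higher, beside 46.9% of all genes tested in wildtype, and 36 of 47 lower genes were again lower, beside 53.1%. Beside these, 6 of 6 tested microglial markers were lower in imNeur cells (181 against 2242 CPM in sum), as were 4 of 4 tested endothelial markers (178 against 1591 CPM). The ependymal and choroid plexus list was higher, at 2767 against 17.9 CPM in sum, with Ttr its 1 tested member. The part of these lists in the values above was not tested. The 13 transgenic imNeur cells gave 7 higher genes (0.821%) and 20 lower (2.34%) of 853 against the transgenic OPC-gene cells.

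In wildtype frontal cortex, where both classes were present in numbers, 2798 genes had at least 20 CPM in 1 class and 50 UMIs over both. Of these, 561 (20.1%) were past 2 times on the side of the 47 fibroblast-gene cells and 475 (17%) on that of the 28 OPC-gene cells. Since the classes were cut from the same cells, this is a description. The higher genes made up 54.2% of those called. Scaling by TMM factors added 0.32 to every log2 ratio and turned the counts into 754 higher and 364 lower. In the transgenic frontal cortex library 475 of the 515 higher genes with at least 10 UMIs were again higher, and 465 of 472 lower genes were again lower, beside 46.2% and 53.8% of all genes tested in wildtype.

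On the fibroblast-gene side, Ptgds, prostaglandin D synthase of the meninges and cerebrospinal fluid, had 29145 UMIs in the fibroblast-gene cells and 13 in the OPC-gene cells (62739 against 58.3 CPM, log2 ratio 10.07, 9.30 to 10.98), though 1 cell held 6796 of them. Apod, a lipid carrier, had 5374 against 3 UMIs (9.75, 8.20 to 12.03), Spp1, the secreted phosphoprotein osteopontin, 1148 against 1 (9.11, 6.63 to 14.41), and Ctgf, a matrix-associated growth regulator, 685 against 1 (8.36, 5.88 to 13.67). Slc7a11, the cystine-glutamate exchanger, had 1296 against 0, a log2 ratio of at least 7.70 over a floor of 3 UMIs in the group, and Col1a2 481 against 0, at least 6.27. Bgn, the proteoglycan biglycan (7.26, 4.77 to 12.57), Emp3, a small membrane protein (7.04, 4.55 to 12.35), and Lgals1, galectin-1 (6.92, 4.43 to 12.23), each had 1 UMI in the OPC-gene cells. In the transgenic library all 9 genes named here had a log2 ratio above 6, taking a group at 0 as 3 UMIs.

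Members of several lists lay on that side. Leaving out Col1a1, which helped to choose the cells, all 12 tested of 22 collagen chains were at least 2 times higher, with a median log2 ratio of 4.28 beside 0.06 over all genes tested. Here and below such medians take a group at 0 UMIs as 3 UMIs. A gene passes the filter through the class where it is high, so these counts describe the members that passed and not the whole lists. At least 2 times higher were also all 5 tested of 9 small leucine-rich proteoglycans other than Dcn and Lum (median 5.29) and 18 of 18 tested glycoproteins and basement membrane proteins (3.62), among them the laminin chain gene Lama1 (168 against 1 UMIs, 6.33, 3.84 to 11.65), the basement membrane gene Nid1 (148 against 0, at least 4.57) and Fbln1, fibulin-1 (73 against 0, at least 3.55). All 7 tested of 12 leptomeningeal solute carriers were higher (median 5.71), among them the GABA and taurine transporter gene Slc6a13 (at least 6.90) and the organic anion transporter gene Slc22a8 (234 against 1 UMIs, 6.81, 4.32 to 12.12). All 6 tested genes of retinoid handling were higher (median 5.11), with Aldh1a2, which makes retinoic acid, at a ratio of at least 5.44. Of 10 tested fibroblast transcription factors 8 were higher (median 4.54). Immediate early genes, which respond within minutes to stimulation and to tissue dissociation, were higher in 9 of 17 (median 1.29).

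On the OPC-gene side, Ptprz1, a receptor phosphatase that carries chondroitin sulfate, had 1329 UMIs in the OPC-gene cells and 2 in the fibroblast-gene cells (-10.43, -13.48 to -8.58). Gria2, an AMPA receptor subunit, had 414 against 1 (-9.75, -15.06 to -7.27). Olig1 (496 against 0) was lower by at least 8.43 in log2 terms in the fibroblast-gene cells, Tnr, tenascin-R (425 against 0), by at least 8.20, and Pcsk1n, a granin-like peptide precursor (172 against 0), by at least 6.90. Vcan, versican, stood at -8.10 (-10.39 to -6.55), Ncald, a calcium sensor, at -8.00 (-13.32 to -5.50), Cspg5, neuroglycan C, at -7.61 and Syt11, a synaptotagmin, at -6.24. All 8 tested matrix and surface proteoglycans of the OPC list other than Cspg4 (median -7.41) and 10 of 10 tested neural adhesion genes (median -5.66) were at least 2 times lower in the fibroblast-gene cells. Microglial markers were summed to 848 CPM in the fibroblast-gene and 2242 CPM in the OPC-gene cells, against 43017 CPM in microglia of that library, and the endothelial list to 1268 and 1591 CPM. Of 8 tested microglial markers 7 were lower and 1, Tmem119, was higher in the fibroblast-gene cells. The mural list was higher in them, at 3847 against 71.7 CPM in sum, most of it Vtn, vitronectin, with 1688 against 4 UMIs. The ependymal and choroid plexus list stood at 454 against 17.9 CPM, with both tested members, Rarres2 and Kl, higher. The part of other cell types' RNA in the class ratios was not tested.

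The fibroblast-gene cells varied among themselves. Per 10000 UMIs of a cell, Dcn ranged from 5.05 to 131.8 with a median of 22 in the wildtype frontal cortex cells, and from 3.35 to 75.2 with a median of 27.7 in the transgenic ones. In midbrain it ranged from 0 to 279.9 (median 72.4) in wildtype and from 0 to 228 (median 50.8) in transgenic cells. Ptgds was spread most widely. It reached 4568 per 10000 UMIs in 1 wildtype frontal cortex cell, and its midbrain median was 26.9 in wildtype and 1.82 in transgenic cells with 18 of 82 and 15 of 35 cells at 0. Apod was at 0 in 1 cell, of wildtype midbrain, and had medians of 81.2 and 103.8 in wildtype and transgenic frontal cortex, and of 136.6 and 90.3 in the midbrain libraries.

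Slc6a13 and Mgp, matrix Gla protein, marked overlapping sets of cells. In wildtype midbrain 31 of 82 cells held UMIs of both, 35 of Slc6a13 alone, 12 of Mgp alone and 4 of neither. In transgenic midbrain these numbers were 7, 19, 8 and 1 of 35, and in wildtype frontal cortex 7, 36, 3 and 1 of 47. Cells with Slc6a13 alone were the most numerous in each of these libraries. The cells with Mgp alone in wildtype midbrain were deeper (median 12343.5 UMIs) than those with Slc6a13 alone (7796 UMIs). Mfap5, a microfibril protein, was found in 22 wildtype midbrain cells, 19 of which also held Mgp and 17 of which held Slc6a13. Of all 82 cells 43 held Mgp and 66 held Slc6a13.

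**Figure D3:**
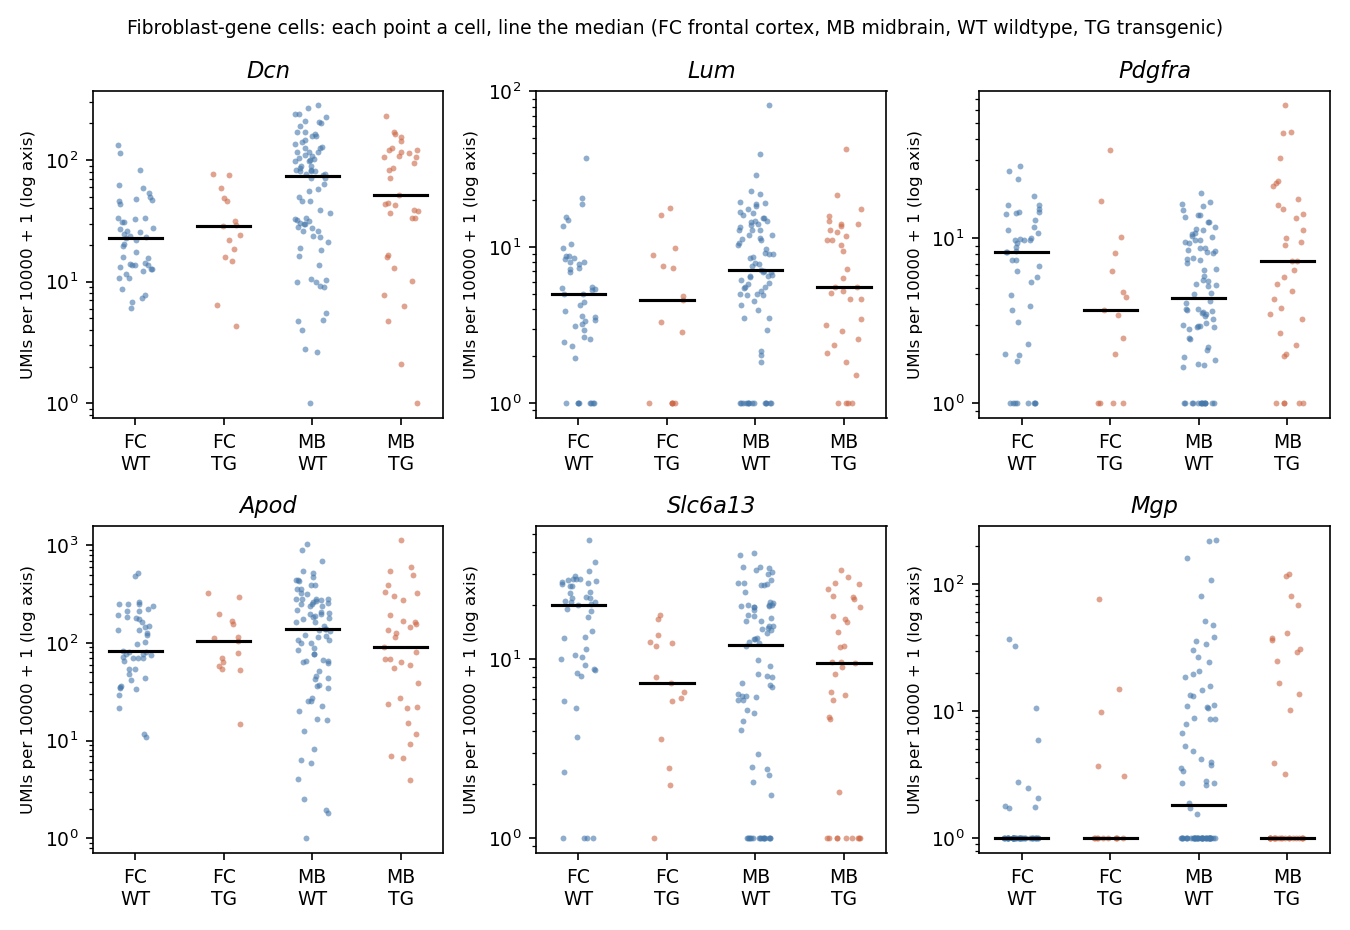
UMIs per 10000 UMIs of the cell, plus 1 on a log axis, of 6 genes in each fibroblast-gene cell; columns are libraries, points are cells and the black line is the median over cells. Dcn has its highest medians in the midbrain libraries, and Mgp lies at 0 in most frontal cortex cells.

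The genotype comparison in midbrain asked how fibroblast-gene cells of mice with mutant alpha-synuclein differed from those of littermates, in 35 transgenic and 82 wildtype cells. Of 3662 genes 52 (1.42%) were past 2 times upward and 124 (3.39%) past 2 times downward in the transgenic library. The fibroblast markers include Dcn, Lum and Col1a1, which chose the cells. None of the 12 passed 2 times, and their median log2 ratio was -0.14, beside -0.09 over all genes tested. Nor did any of 18 tested collagen chains (median -0.10). The counting interval of a called gene, not adjusted for the number of genes, left out 0 for all 52 higher and 123 of 124 lower genes. Calls at 2 times on at least 50 UMIs use the same counts, so this outcome largely follows from the call rule. It is no further support for the calls.

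Chemokines were among the higher genes. Ccl2, a monocyte chemokine, stood at 526 CPM in transgenic and 201 CPM in wildtype cells (log2 ratio 1.39), with UMIs in 12 of 35 and 11 of 82 cells, and 1 transgenic cell held 98 of its 170 UMIs. Ccl11, eotaxin, stood at 414.5 against 81.8 CPM (2.34), of which 1 transgenic cell held 73 of 134 UMIs. Ccl7, another monocyte chemokine, stood at 133 against 45.7 CPM (1.54, 0.85 to 2.24) and Cxcl1, a neutrophil chemokine, at 173 against 72.1 CPM (1.27), although 1 transgenic cell held 36 of 56 UMIs. These 4 of the 16 tested cytokine and chemokine genes were at least 2 times higher and none was lower, with a list median of 0.35. Over all genes tested 1.42% were higher and 3.39% lower, with a median of -0.09. Nfkbiz, an inducible regulator of NF-κB target genes, stood at 241 against 58.2 CPM (2.05, 1.49 to 2.63). These chemokine ratios thus rest on few cells, in Ccl2, Ccl11 and Cxcl1 on 1 cell for the greater share.

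Among the other genes named by rule, Crispld2, a secreted cysteine-rich protein gene, stood at 1052 CPM in transgenic against 281 CPM in wildtype cells (1.90, 1.65 to 2.16). Dpep1, a membrane dipeptidase, stood at 155 against 40.2 CPM (1.94), Tmem176a, a membrane protein, at 145 against 45.7 CPM (1.67) and Mylk, myosin light chain kinase, at 142 against 47.1 CPM (1.59). On the lower side, Pi16, a peptidase inhibitor known from adventitial fibroblasts, had 0 UMIs in the transgenic and 86 UMIs in 12 cells of the wildtype library, a ratio lower by at least 3.68. Clec3b, tetranectin, stood at 74.2 against 312 CPM (-2.07) and Fn1, fibronectin, at 34 against 153 CPM (-2.16). Emb, a cell surface glycoprotein (-3.43, -6.51 to -1.50), Nebl, an actin-binding protein (-2.65), and Hist1h1c, a linker histone (-2.27), were the remaining genes.

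Genes of retinoid handling were lower in 4 of 8, among them Aldh1a1 (235 against 504.5 CPM, -1.10), Rbp4 (297 against 609.9 CPM, -1.04) and Cyp26b1 (114.5 against 333 CPM, -1.54). These encode an enzyme that makes retinoic acid, the retinol carrier of plasma and an enzyme that degrades retinoic acid. The list median was -0.99, and 1 transgenic cell held 58 of 96 Rbp4 UMIs. Beside this list and the next, 3.39% of all genes tested were lower and 1.42% higher, with a median of -0.09. Of 12 tested genes of fibrosis and activation 5 were lower and none higher (median -0.66). Among them Ctgf stood at 526 against 2000.1 CPM (-1.93), Acta2, smooth muscle actin, at 15.5 against 115 CPM (-2.89), and Tagln, a smooth muscle cytoskeletal protein, at 58.8 against 613 CPM (-3.38). A single wildtype cell held 263 of the 442 Tagln UMIs. Acta2 and Tagln are also mural markers: 3 of 4 tested mural markers were lower, the list summing to 2540 against 4788 CPM, and 5 of 6 tested endothelial markers were lower (442 against 1056 CPM). Erythroid genes summed to 217 against 30.5 CPM, with the 1 tested member, Hbb-bs, higher (3.06), and arachnoid barrier markers, none of them tested, to 15.5 against 88.7 CPM. The part of other cell types' RNA in these differences was not tested.

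**Figure D4:**
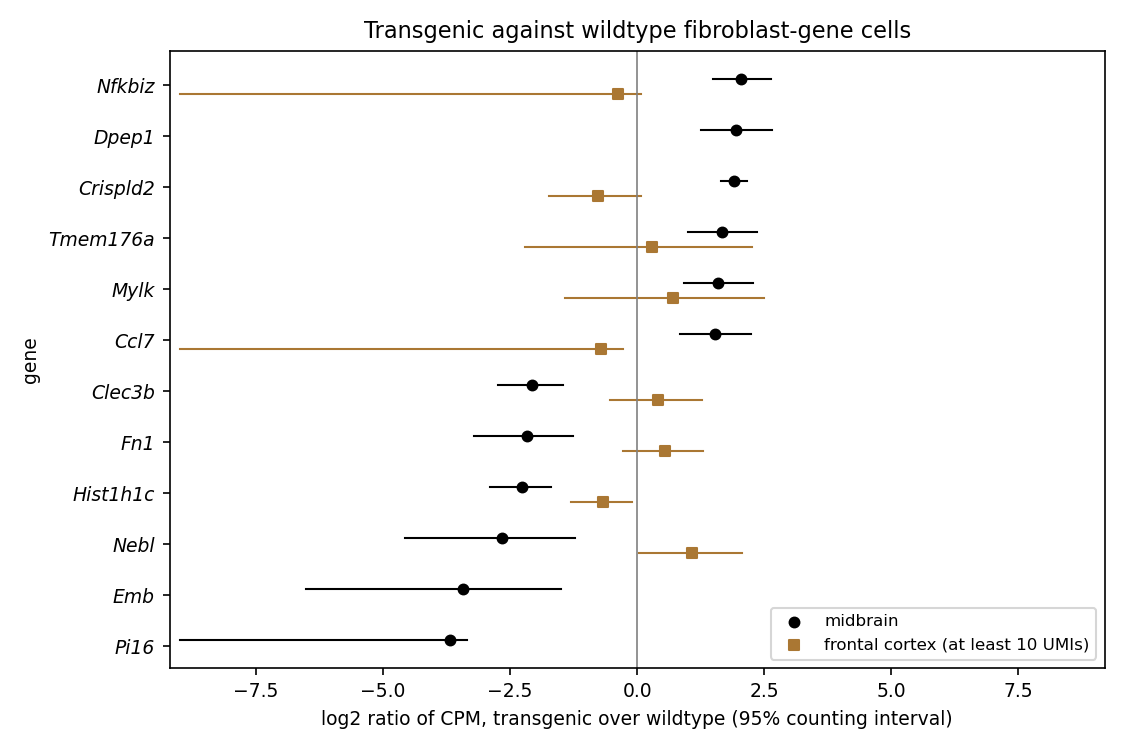
Log2 ratio of CPM, transgenic over wildtype, of the 12 genes named for the midbrain fibroblast-gene cells, in midbrain (black circles) and in frontal cortex where both libraries held at least 10 UMIs together (brown squares). Lines are 95% counting intervals cut at the axis, and a group with 0 UMIs was set to 3 UMIs, so that Pi16 in midbrain and Nfkbiz and Ccl7 in frontal cortex are bounds; the frontal cortex points of the higher genes lie between -0.78 and 0.71.

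The genes called in midbrain were then read in frontal cortex. Of the genes higher in midbrain with at least 10 UMIs in frontal cortex, 9 of 47 were also higher there, beside 42.1% of all genes tested in midbrain with as many UMIs. Of those lower in midbrain 60 of 119 were also lower, beside 57.9%. Crispld2 stood at 114 CPM in the transgenic and 196 CPM in the wildtype frontal cortex cells. Ccl7 had 0 and 20 UMIs, and Ccl2 2 and 32 UMIs.

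The frontal cortex comparison rested on 15 transgenic against 47 wildtype fibroblast-gene cells, and was added although the transgenic group was under the minimum of 20 cells. The transgenic cells were also shallower (median 4761 against 10189 UMIs) and held more mitochondrial UMIs (median 7.62% against 3.13%), and the part of these differences in the ratios was not tested. Of 2075 genes 81 (3.9%) passed 2 times upward and 236 (11.4%) downward in the transgenic library. The unadjusted counting interval left out 0 for all 81 higher and 207 of 236 lower genes. As in midbrain, this largely follows from the call rule and is no further support. Erythroid genes summed to 413 CPM in the transgenic against 17.2 CPM in the wildtype cells, neuronal markers to 61.6 against 15.1 CPM, arachnoid barrier markers to 17.6 against 75.3 CPM and microglial markers to 537 against 848 CPM. Their part in the ratios was not tested. Serpine2, the serine protease inhibitor nexin-1, led the higher genes with 1003 against 43.1 CPM (4.54, 3.85 to 5.31) and UMIs in 8 of 15 and 16 of 47 cells. It was followed by Ecm1, extracellular matrix protein 1 (2.57), Coch, cochlin (2.38), S100a6, a calcium-binding protein (2.35), Hspb1, a small heat shock protein (2.31) and Gjb2, the gap junction protein connexin 26 (1.78). In midbrain Serpine2 went the other way, at 223 CPM in transgenic and 316 CPM in wildtype cells. Ecm1 (-1.11), Coch (-0.52), Hspb1 (-0.55) and Gjb2 (-0.78) were also lower in transgenic midbrain cells, while S100a6 stood at 0.11 (-0.02 to 0.24).

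The lower side held Adamts1, a secreted metalloprotease (8.80 against 249.7 CPM, -4.83, -10.14 to -2.32), Dusp6, a phosphatase that dampens ERK signalling (-4.46, -9.78 to -1.95), Snhg11, a noncoding RNA (-4.38), Ifit2, an interferon-induced gene (-3.72), Ggt5, a gamma-glutamyl transferase (-3.70, -9.03 to -1.16), and G0s2, a lipolysis inhibitor (-3.61, -8.95 to -1.07). Adamts1, Dusp6, Ggt5 and G0s2 rested on 1 UMI in the transgenic cells. In midbrain Adamts1 (0.98), G0s2 (0.94), Ggt5 (0.78) and Snhg11 (0.03) had positive ratios, and Dusp6 (-0.79) and Ifit2 (-0.65) negative ones. Immediate early genes were lower in 12 of 17 tested (median -1.31 beside -0.11 over all genes): Egr1 stood at 219.9 against 1027 CPM (-2.22) and Jun at 563 against 1384 CPM (-1.30), while Fos stood at 1293 against 762 CPM, although 1 transgenic cell held 101 of its 147 UMIs. Slc6a13 (589 against 1606 CPM, -1.45) and Slc22a8 (123 against 504 CPM, -2.03) were the 2 of 7 solute carriers past 2 times. Among 14 tested collagen chains 4 were lower, including Col15a1 (-2.41) and Col12a1 (-1.82), and 1 of 11 fibroblast markers, Fbln1 (1.09), was higher, with 20 of 38 transgenic UMIs in 1 cell. The marker list includes Dcn, Lum and Col1a1, which chose the cells. Over all genes tested 3.9% were higher and 11.4% lower.

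In midbrain, 3 of the 18 tested immediate early genes (Jun, Nr4a1 and Nfkbiz) were at least 2 times higher and none lower, with a list median of 0.53 beside -0.09 over all genes tested, of which 1.42% were higher. Jun stood at 3477 CPM in transgenic and 1627 CPM in wildtype cells (1.10), Egr1 at 2348 and 1317 CPM and Nr4a1 at 334 and 157 CPM (1.09). Dissociation is known to induce these genes, and its part in these differences was not tested.

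OPC-gene cells could be compared between genotypes in frontal cortex alone, in 19 transgenic and 28 wildtype cells, again added below the minimum of 20 cells. Of 1492 genes 22 (1.47%) lay 2 times or more above the wildtype level and 33 (2.21%) lay 2 times or more below it. None of 14 OPC markers passed 2 times and their median was -0.04, beside 0.04 over all genes tested. The list includes Gpr17, Lhfpl3 and Cspg4, which chose the cells. The highest ratio was that of Cebpd, a transcription factor of acute-phase responses, at 370.1 against 31.4 CPM (3.56, 2.43 to 4.93), in 9 of 19 and 6 of 28 cells. Hes5, a Notch target, stood at 567 against 184 CPM (1.63), Mt1, a metallothionein, at 499.6 against 184 CPM (1.44), Lgalsl, a galectin-like protein gene, at 1.80 and Hif1a, the hypoxia-inducible factor, at 1.46. Serpina3n, a protease inhibitor of reactive glia, had 57 against 3 UMIs, 42 of them in 1 cell.

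On the lower side, Ppp1r16b, a phosphatase subunit (-1.54), Spock2, a testican proteoglycan (-1.51, with 55 of 110 wildtype UMIs in 1 cell), Eid1, a regulator of transcription (-1.49), Nudcd3, a co-chaperone (-1.48), Sgk1, a stress-responsive kinase (-1.47), and Adgrg1, an adhesion receptor of precursors (-1.42), were named. All 6 tested microglial markers were lower (555 against 2242 CPM in sum), and so were all 4 tested endothelial markers (222 against 1591 CPM). Erythroid genes went the other way, at 376 CPM in the transgenic and 44.8 CPM in the wildtype cells. The part of such RNA in these ratios was not tested.

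Prnp, the prion protein gene, was the second of the higher genes. Its gene lies on chromosome 2 (131909928 to 131938429, plus strand, GRCm38). It had 432 UMIs in the transgenic and 79 UMIs in the wildtype OPC-gene cells (2664 against 354 CPM, log2 ratio 2.91, 2.56 to 3.28), in 18 of 19 and 23 of 28 cells. The midbrain imNeur cells showed the same difference, with 2075 CPM in 13 transgenic and 367 CPM in 71 wildtype cells. Fibroblast-gene cells held less, 492 against 186 CPM in midbrain (1.40) and 202 against 157 CPM in frontal cortex (0.36), where the intervals of the levels overlapped. In microglia Prnp stood at 107 CPM in the transgenic and 21.2 CPM in the wildtype library of frontal cortex, where midbrain had 57.5 against 59.2 CPM. The share of midbrain microglia with a Prnp UMI was 28.8% in transgenic and 15.2% in wildtype, at median depths of 8317.5 and 6749 UMIs. Pericytes held 356 against 75.1 CPM and 288.5 against 99.3 CPM. Astrocytes, with the highest levels of the other labels read, held 1794 against 1231 CPM in frontal cortex and 1778 against 1512 CPM in midbrain. Endothelial cells held 376 against 274 CPM and 326 against 273 CPM, and OLG cells 602 against 245 CPM and 682 against 267 CPM.

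Between regions, 82 midbrain and 47 frontal cortex fibroblast-gene cells of the wildtype libraries were compared. Of 4181 genes 130 (3.11%) were past 2 times on the midbrain side and 88 (2.1%) on the frontal cortex side, counts that became 158 and 68 under TMM factors. Dcn was the 1 of 12 fibroblast markers past 2 times (1.49), and no collagen chain of 16 tested was (median -0.22 beside 0.00 over all genes). Dcn, Lum and Col1a1, all on the marker list, chose the cells. Mgp stood at 1910.0 CPM in midbrain and 181 CPM in frontal cortex (3.40), with UMIs in 43 of 82 and 10 of 47 cells.

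Alpl, tissue-nonspecific alkaline phosphatase, stood at 143 CPM in midbrain and 4.31 CPM in frontal cortex (5.05, 3.16 to 8.12, from 103 and 2 UMIs), in 9 and 2 cells. Mfap5 (3.79) and Ccl11 (3.66, 2.05 to 5.98) were also higher, and Pi16 and Ptgs2, which encodes cyclooxygenase-2, had 86 and 72 UMIs against 0 (at least 4.21 and at least 3.95). Of 17 tested secreted growth factors and binding proteins 5 were higher and 1, Bmp4 (-1.39), was lower, with a list median of -0.02. The higher ones were Igf1 (1.67), Igfbp4 (1.72), Igfbp5 (1.74), Igfbp6 (1.74), with 156 of 307 UMIs in 1 cell, and Igfbp7 (1.68), while Igf2 stood at -0.29 and Igfbp2 at -0.63. Of 15 tested cytokine and chemokine genes 7 were higher and none lower (median 0.96), among them Icam1, an adhesion receptor for leukocytes (2.40) and Il33, an alarmin (1.69). Over all genes tested 3.11% were higher and 2.1% lower, with a median of 0.00.

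Lower in midbrain were Ifit2 (107 against 463 CPM, -2.12), Gatm, an enzyme of creatine synthesis (-2.04), Unc13c, a vesicle priming protein gene (-1.95), Flrt3, an adhesion protein gene (-1.90), Sgk1 (-1.82) and Ptprb, an endothelial phosphatase (-1.67). In the transgenic libraries Ifit2 (0.95), Unc13c (at least 0.61) and Sgk1 (0.69) had positive ratios, and Gatm (-0.51), Flrt3 (-0.29) and Ptprb (-1.24) negative ones. Of these, the counting interval left out 0 for Unc13c alone, with 13 against 0 UMIs. The organic anion transporter genes Slc22a6 (230.1 against 661 CPM, -1.52) and Slc22a8 (219 against 504 CPM, -1.20) were the 2 of 7 solute carriers past 2 times. Ttr, a gene of choroid plexus epithelium, was found in 82 of 82 midbrain cells (2108 CPM) against 6 of 47 in frontal cortex, and the ependymal and choroid list was at 4696 CPM in midbrain microglia against 14.3 CPM in frontal cortex microglia. All 6 tested microglial markers were lower in midbrain (249 against 848 CPM), and 3 of 4 tested mural markers were higher, with 132 of 151 Rgs5 UMIs in 1 midbrain cell. The part of such RNA in the region ratios was not tested.

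**Figure D5:**
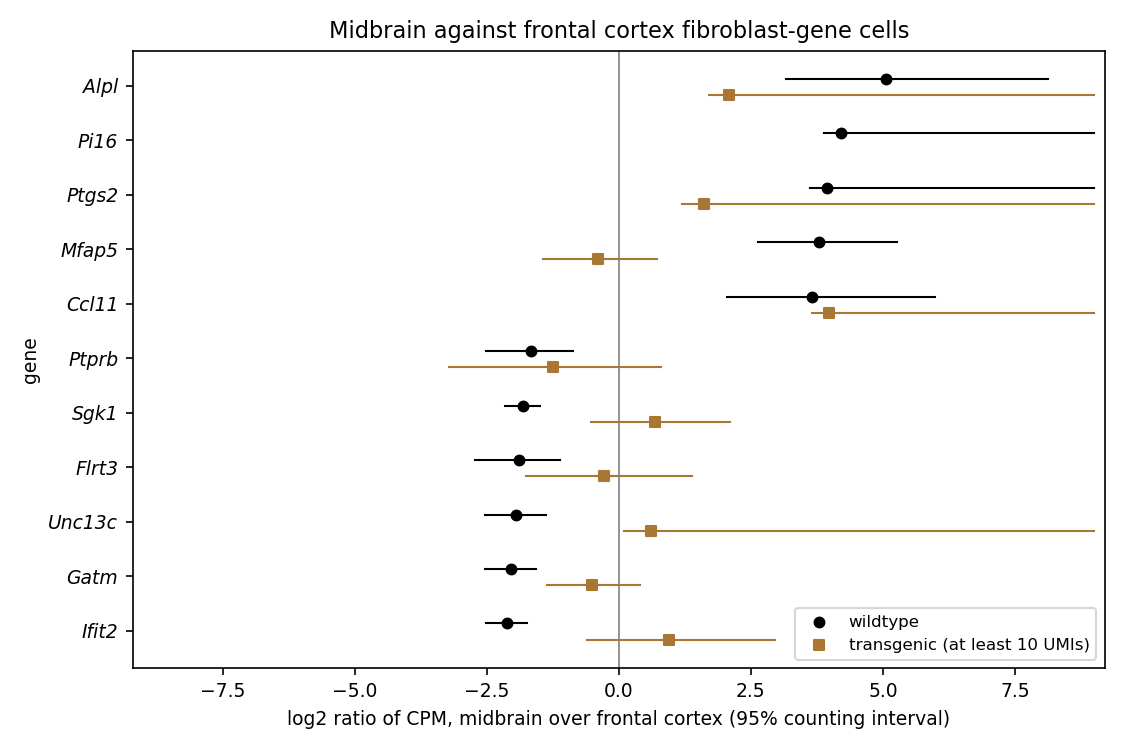
Log2 ratio of CPM, midbrain over frontal cortex, of 11 genes named for the wildtype fibroblast-gene cells, in the wildtype libraries (black circles) and in the transgenic libraries where both held at least 10 UMIs together (brown squares). Lines are 95% counting intervals cut at the axis, and a group with 0 UMIs was set to 3 UMIs; Ccl11 lies at 3.66 and 3.97, while Mfap5 lies at 3.79 and -0.39.

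In the transgenic libraries, with 35 midbrain and 15 frontal cortex cells, 81 of 123 genes higher in wildtype midbrain were also higher, beside 53.8% of all genes tested in wildtype, and 49 of 82 lower genes were also lower, beside 46.2%. Ccl11 had 134 UMIs in the transgenic midbrain and 0 in the transgenic frontal cortex cells. Dcn differed less than in wildtype, at 6781 against 4143 CPM, and Mgp stood at 2323 against 1117 CPM (1.06), with 117 of 127 frontal cortex UMIs in 1 cell. All 12 Mfap5 UMIs of transgenic frontal cortex were likewise in 1 cell. In these libraries 151 of 1399 genes (10.8%) were higher and 74 (5.29%) lower in midbrain. Immediate early genes were higher in 15 of 18 tested (median 1.87), and the frontal cortex side of this comparison is the group of shallow cells described above. The genotype and region comparisons share libraries: Pi16, with 86 UMIs in wildtype midbrain and 2 in transgenic frontal cortex, was named in both.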

How the data were processed

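In the deposited matrices the values are whole UMI counts, 1 for each gene in each cell, and the authors' cell tables list for every cell its percent of mitochondrial UMIs, its cluster and its type. Per the submitters' processing notes, Cell Ranger 3.0.0 and Seurat 3.1.5 were used, and the genome build was mm10. How cells were filtered and whether doublets were removed is not given in the sources used here, and no doublet caller was run.

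Each library held 30712684 to 56588233 UMIs. UMIs were summed over the cells of a class and library and scaled to CPM. Log2 ratios have exact 95% intervals conditional on the sum of both counts (Python 3.11.15, scipy 1.17.1), levels exact Poisson intervals and shares exact binomial intervals, and a group at 0 UMIs was set to 3 in a ratio. A gene was tested for a fold at 20 CPM in 1 group and 50 UMIs over both, and called at 2 times. The steps were tested on simulated data, where false calls were made too, so that test is no support for the calls printed here. A minimum of 20 cells per group was set. The genotype comparisons in frontal cortex, with 15 and 19 transgenic cells, the region comparison in transgenic cells, the class comparison in transgenic frontal cortex and the use of imNeur cells were added after seeing the data.

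Genes were named by rule: between classes the 10 highest and 10 lowest by the median ratio over both frontal cortex libraries, and between libraries the 6 highest and 6 lowest ratios that kept their direction under TMM scaling and under a mean over cells, with no cell holding over 50% of the UMIs of the higher group. Mitochondrial, ribosomal, haemoglobin, predicted and sex-linked genes and other types' markers were left out. Pdgfra, Prnp, the 6 class genes and list members were added, some of these (such as Ccl2, Ccl11, Cxcl1, Serpina3n, Ttr and Mgp) with their values known, and the named genes of transgenic region and transgenic imNeur comparisons are not printed, and some other genes that the rule names are not reported here. The members and lists were chosen with earlier results of these data known. Alternatives used edgeR 4.0.16 for TMM and DESeq2 1.42.0 for size factors under R 4.3.3.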

Additional observations from a re-analysis of the deposited data

Results flagged for a closer look

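Opposite directions in the 2 regions were looked for among the genes named by genotype in fibroblast-gene cells, the immediate early genes, the collagen chains and the small leucine-rich proteoglycans. Of those with at least 50 UMIs and 20 CPM in each region's comparison, 3 genes were at least 2 times apart between genotypes in both regions, in opposite directions. How many of the searched genes met that minimum, and the share over all genes, are not given here. The 3 genes are therefore examples and no measure of how often the regions differ. Ecm1 was among those searched because it was named in frontal cortex. The difference between the regions was not tested, since each group is 1 library. Ecm1, a secreted matrix protein gene, had a log2 ratio of transgenic over wildtype of -1.11 in midbrain (86.6 against 187 CPM) and 2.57 in frontal cortex (422 against 71.0 CPM). Jun stood at 1.10 in midbrain and -1.30 in frontal cortex. Nr4a1, an immediate early nuclear receptor gene, stood at 1.09 in midbrain and -2.47 in frontal cortex, where all 3 transgenic UMIs were in 1 cell. Nebl, with 41 UMIs in frontal cortex and so under that minimum, stood at -2.65 in midbrain and 1.08 (0.04 to 2.06) in frontal cortex. The frontal cortex values rest on 15 transgenic cells.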

How the results depend on the processing

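For 68 of the genes named by rule, direction was kept and ratios stayed past 2 times in 196 of 196 values. These were read under TMM factors, DESeq2 size factors and the mean of per-cell CPM, the last of which gave values for 60 of the 68 genes. Outside the comparison of classes, direction under TMM factors and the mean over cells was part of the rule. Of 106 class shares and counts of genes, 81 kept close to the reported value. In wildtype midbrain the fibroblast-gene share was 94.6% with at least 2 UMIs required and 100% by the larger sum, and in transgenic midbrain it was 100% by the larger sum and after thinning. With no filter on low genes, every gene with at least 1 UMI in each group was tested, also genes with a few UMIs. Genes without UMIs in 1 of the groups, such as Slc7a11, Col1a2 and Olig1 between classes, were left out there. The counts higher and lower were then 1555 and 3311 between classes, 1480 and 1479 by genotype in frontal cortex fibroblast-gene cells, 1446 and 1121 in midbrain, 1459 and 1299 in OPC-gene cells, and 899 and 1326 between regions. At 1.5 times the genotype counts were 249 and 484 in frontal cortex, 247 and 442 in midbrain and 146 and 112 in OPC-gene cells, and the region counts 371 and 427. The mean of per-cell CPM gave 89 higher genes by genotype in midbrain and 35 in OPC-gene cells, and 155 lower between regions, and the cause was not tested. None of these 68 genes reversed. The balance of higher and lower counts did turn: with no filter on low genes it turned between classes, between regions and by genotype in midbrain and in OPC-gene cells, and in frontal cortex fibroblast-gene cells the counts became near equal. In that setting a gene with 1 UMI in each group has a ratio set by the group totals alone, and genes without UMIs in 1 group are missing from the counts. The part of the totals and of the missing genes in these turns was not tested. At 1.5 times the balance turned in OPC-gene cells and between regions. No paired analysis was possible because each group is 1 library and the labels give no replicate numbers. OPC-gene comparisons in midbrain were not run, as there were no such cells. Depth is lowest in the transgenic imNeur cells, with 94926 UMIs, then in the transgenic frontal cortex fibroblast-gene cells, with 113697, and the OPC-gene cells, with 162134 and 223062.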
